A study of Mus musculus with 661 samples.

Results

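Complement components and regulators expressed by bone marrow stromal cells were described through 9 genes, *C2*, *C3*, *C4b*, *Cfb*, *Cfd*, *Serping1*, *C1ra*, *Cd55* and *Cd59a*, out of 45771 nuclear genes in the deposited count table. They were taken by symbol from that table, and were selected on their levels and old over young differences in these same cells, read earlier, so their values are given here as a description. The study profiled single stromal cells from the bones of young and old C57BL/6 mice of both sexes with a plate-based protocol that reads whole transcripts and carries no molecular identifiers. Cells lacking the blood markers Ter119 and CD45 were sorted into 6 populations. From the endosteum, the inner bone surface, came MSC-S (mesenchymal stromal cells, CD31-negative, Sca-1-positive, CD51-positive), mOPr (multipotent osteoprogenitors, CD31- and Sca-1-negative, CD51- and PDGFRα-positive, LepR-negative), OPr (the same without PDGFRα) and AEC (arteriolar endothelial cells, CD31-positive, Sca-1-high, CD105-low). From the central marrow came MSC-L (mesenchymal, CD31- and Sca-1-negative, CD51-, PDGFRα- and LepR-positive) and SEC (sinusoidal endothelial cells, CD31-positive, Sca-1-low, CD105-high).

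The 12 groups of population and age hold 661 cells. Old and young mice gave 58 and 53 MSC-L, 59 and 59 MSC-S, 29 and 44 OPr, 26 and 26 mOPr, 82 and 84 AEC, and 71 and 70 SEC. Cells of each age came from several mice, but the labels do not say which cell is from which mouse, so replicates cannot be told apart, the cells of a group stand as 1 sample, and no test between ages or populations was made. Counts per cell ran from 58034 to 1503374, with a median of 425611. The group medians (with the lowest and highest cell) lay between 306315 (77605 to 458840) in old SEC and 781968 (58034 to 1503374) in old OPr. Levels are given as CPM, the usual scaling of a gene's count to a common library total, here of the nuclear gene counts summed over a group, followed in parentheses by the exact 95% Poisson interval. A share of cells counts those with at least 1 count of a gene after each cell was thinned at random to 100000 nuclear counts, which left out 7 shallower cells, and carries an exact Clopper-Pearson interval. Reads without molecular identifiers are not independent molecules, so all intervals cover counting error only.

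Complement is a cascade of plasma proteins in which C1r activates *C1s*, which cleaves C4 and *C2*. In another route factor D cleaves factor B, and both routes build an enzyme that splits *C3*. The fragments of *C3* coat surfaces and lead to the membrane attack complex, and host cells hold the cascade in check with soluble and membrane-bound inhibitors. The liver makes most of the circulating proteins, while fibroblasts, adipocytes and other stromal cells also produce several of them.

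On the genome build of the counts (GRCm38), 4 of the members lie on chromosome 17. *C4b* (chr17:34728380-34743882, minus strand), *Cfb* (chr17:34856374-34862518, minus) and *C2* (chr17:34862604-34898265, minus) sit in the major histocompatibility region, where 85 bases part *C2* from *Cfb*, and *C3* lies farther along at chr17:57203970-57228136 (minus). *Serping1* (chr2:84765387-84775444, minus) and *Cd59a* (chr2:104095801-104115354, plus) are on chromosome 2. *C1ra* (chr6:124512405-124523443, plus) is 6901 bases from its partner *C1s1*, *Cfd* is at chr10:79890853-79892655 (plus) and *Cd55* at chr1:130439027-130462744 (minus). Reads were counted without strand, and 4 exon overlaps could take reads from members. *C2* and *Cfb* share 1656 and 2246 exon bases with the read-through gene *Gm20547*, which has 0 counts itself, *C2* shares 161 with *Zbtb12* on the other strand (114 counts) and *Cd55* shares 102 with the antisense gene *Gm16083* (218 counts). The close paralogs *C4a*, *C1rb*, *Cd59b* and *Daf2* had 1380, 681, 270 and 298 counts over all cells against 122161 for *C4b*, 36974 for *C1ra*, 9427 for *Cd59a* and 32523 for *Cd55*. How reads divide between such pairs was not tested.

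*Cxcl12*, the most abundant of 5 MSC-L markers, stood at 48750.1 CPM in young and 39599 in old MSC-L, and *Stab2*, a marker of sinusoidal endothelium, at 7177 and 5875 in SEC. The 6 AEC markers, led by *Ly6a*, summed to 2712 CPM in young and 2978 in old AEC. The 5 MSC-S markers, also led by *Ly6a*, summed to 1982 CPM in young and 2468 in old MSC-S but to 2388 and 2544 in AEC, so their sum did not single out MSC-S. Without *Ly6a*, which encodes a Sca-1 protein and belongs to both lists, the sums were 1070.0 and 1164 in young and old MSC-S and 894 and 807 in AEC. Nor did the sum of the 5 OPr markers single out OPr, since it was 2431 CPM in young and 1545 in old OPr and 8670.1 and 3439 in MSC-L. Most of the MSC-L sum was *Ibsp*, and without it the sums were 1270.0 and 766 in young and old OPr, 658 and 610.1 in MSC-L, and 1270.2 and 1265 in mOPr. The other OPr markers had different orders. In young OPr, MSC-L and mOPr, in this order, *Alpl* was at 876, 152 and 458 CPM, *Bglap* at 143, 2.37 and 666, *Sp7* at 49.1, 65.2 and 28.2, and *Runx2* at 202, 439 and 118. Marks of other cells appeared in several groups. Of 15 blood cell markers, 8 old OPr cells carried at least 7 at 10 CPM or more, and the list summed to 4010.3 CPM in old OPr, led by *Tyrobp* at 851 and with no marker at 0, against 32.6 in young OPr, where *Cd52*, *Cd48* and *Was* were at 0. At least 7 of 15 mesenchymal markers were found in 11 of 70 young and 7 of 71 old SEC, and the list summed to 1109.7 CPM in young SEC, with every marker above 0, and 915 in old SEC, with *Twist2* at 0 and *Col6a3* as the most abundant in both. The same rule marked 2 of 84 young and 3 of 82 old AEC. The AEC markers, led by *Ly6a* and with none at 0, summed to 1046 CPM in old and 314 in young SEC, with *Gja4* at 212 and 3.01. The 4 SEC markers summed to 359 CPM in old and 762 in young AEC, with *Stab2* at 9.35 and 217. The MSC-L markers also summed to 22487 CPM in old OPr and 20881 in old mOPr, against 5407 and 799 in young, led by *Cxcl12* and with none at 0.

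Per kilobase of exon and by summed counts, the member with the highest level in every group but old SEC was *Serping1*. It encodes C1 inhibitor, the secreted serpin that blocks C1r, *C1s* and the lectin pathway proteases. In young mice, *Serping1* stood at 7055 in MSC-L, 2393 in MSC-S, 1196 in OPr, 865 in mOPr, 187 in AEC and 781 in SEC (all CPM). In old mice, it stood at 4008 in MSC-L, 5567 in MSC-S, 2622 in OPr, 3436 in mOPr, 147 in AEC and 312 in SEC. Its order from high to low ran from young MSC-L at 7055 CPM (7021 to 7089.9), through old MSC-S, old MSC-L and old mOPr, to AEC, and the intervals of no neighbours in this order met. As summed levels, the mesenchymal groups lay above the endothelial ones, but not in every part. The young OPr outside clusters M1 and M2, 41 of 44 cells, were at 232 CPM, under both ages of SEC, and the median young OPr was at 2.93, beside 3.57 in old AEC. Young mOPr without their highest cell were at 664 CPM, beside 654 in young SEC, and young AEC at 119. After thinning, *Serping1* was found in 53 of 53 (100%, 93.3 to 100%) young and 56 of 56 (100%, 93.6 to 100%) old MSC-L, and in 54 of 59 (91.5%, 81.3 to 97.2%) young and 57 of 59 (96.6%, 88.3 to 99.6%) old MSC-S. Single MSC-L ranged from 34.2 to 15590.2 CPM in young mice (median 6205) and from 37 to 9851 in old mice (median 3766), so the ages overlapped cell by cell. In SEC the gene was uneven, with a cell median of 0 at both ages. Without the SEC that carried mesenchymal markers, its level was 109.6 CPM in young and 90.7 in old SEC, close to the 95.4 and 122 of AEC treated the same way. Per kilobase, *Cfd* then led in young SEC too, at 207 CPM per kb, with *Cd55* at 48.2 and *Serping1* at 47.1.

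The classical pathway was represented by *C1ra*, the C1r protease, by *C4b*, the fourth component, and by *C2*, the serine protease of the *C3* convertase. *C1ra* followed much of the order of *Serping1* at a lower level. In young mice, *C1ra* stood at 433 in MSC-L, 82.3 in MSC-S, 49.5 in OPr, 75.3 in mOPr, 10.4 in AEC and 61.8 in SEC (CPM). In old mice, *C1ra* stood at 264 in MSC-L, 203 in MSC-S, 142 in OPr, 255 in mOPr, 11.3 in AEC and 14.3 in SEC. Young MSC-L were highest at 433 CPM (424 to 441), and AEC lowest. Among neighbours in this order, intervals met between old MSC-L and old mOPr, between young MSC-S and young mOPr, and between the ages of AEC. Some of these levels rested on 1 cell, without which *C1ra* was at 24.4 CPM in young OPr, 4.38 in young AEC and 8.79 in old SEC. After thinning, 52 of 53 (98.1%, 89.9 to 100.0%) young and 53 of 56 (94.6%, 85.1 to 98.9%) old MSC-L had *C1ra*. Leaving out SEC with mesenchymal markers lowered its SEC levels to 19.6 CPM in young and 4.31 in old mice. Without the highest of the remaining cells as well, *C1ra* was at 14.6 and 1.48.

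*C4b* was highest in young MSC-L at 1129.9 CPM (1116 to 1144) and old MSC-L at 1065 CPM (1050.5 to 1079.5). The other young groups had 252 in MSC-S, 396 in OPr, 25.8 in mOPr, 5.65 in AEC and 164 in SEC. Old groups had 688 in MSC-S, 698 in OPr, 597 in mOPr, 3.35 in AEC and 81.7 in SEC. Only old OPr and old MSC-S had intervals that met as neighbours. The young MSC-S level rested largely on 1 cell with 5143 counts of *C4b*, without which it was 106 CPM. Likewise, without the highest cell *C4b* was at 7.11 CPM in young mOPr, 2.92 in young AEC and 0.699 in old AEC. In SEC, *C4b* was at 12.9 CPM in young and 12.1 in old mice once cells with mesenchymal markers were left out. Without the highest of the remaining cells as well, it was at 5.82 and 6.57. *C4b* was widespread in MSC-L, found in 55 of 56 (98.2%, 90.4 to 100.0%) old and 52 of 53 (98.1%, 89.9 to 100.0%) young cells, and rarer in MSC-S, found in 34 of 59 (57.6%, 44.1 to 70.4%) old and 18 of 59 (30.5%, 19.2 to 43.9%) young cells.

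*C2* was also a gene of MSC-L, where old cells had 106 CPM (102 to 111) and young cells 101 CPM (96.6 to 105), with intervals that met. The other old groups had 39.9 in MSC-S, 57.9 in OPr, 60.6 in mOPr, 1.49 in AEC and 8.2 in SEC. Among the other young groups *C2* reached 2.43 in MSC-S, 8.45 in OPr, 12.4 in mOPr, 0.775 in AEC and 13.6 in SEC. Old mOPr and old OPr met in their intervals, as did young SEC and young mOPr, young OPr and old SEC, and the lowest 3 groups, young MSC-S and both ages of AEC, in sequence. Single cells set several of these levels. Without its highest cell, *C2* was at 1.2 CPM in young mOPr, 2.34 in young OPr, 1.53 in young MSC-S, 37.9 in old mOPr, and 0.408 and 0.578 in young and old AEC, while MSC-L kept 92.6 and 92.9 in young and old mice. Without SEC that carried mesenchymal markers, *C2* in SEC was at 2.33 CPM in young and 0.701 in old mice. *C2* was found in 43 of 56 (76.8%, 63.6 to 87%) old MSC-L and 3 of 59 (5.08%, 1.06 to 14.1%) young MSC-S.

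*C3*, on which all routes converge, was highest in old mOPr at 1028 CPM (1010.1 to 1046). The remaining old groups had 725 in MSC-L, 559.6 in MSC-S, 590.0 in OPr, 0.946 in AEC and 12.1 in SEC. In young mice, *C3* stood at 490.0 in MSC-L, 262 in MSC-S, 169 in OPr, 63.6 in mOPr, 4.05 in AEC and 73.5 in SEC. No neighbours in the order of its 12 levels had counting intervals that met, but single cells carried much of several levels. Without its highest cell, *C3* was at 21.3 CPM in young mOPr, 44.1 in young SEC, 106 in young OPr and 385 in old OPr. Without all SEC that carried mesenchymal markers, *C3* in SEC was at 12.9 CPM in young and 4.74 in old mice. Without the highest of the remaining cells as well, it was at 3.11 and 1.09. Cells differed widely within a group. In old MSC-L the lowest cell had 0 CPM, the median was 423 and the highest 4887, and in old MSC-S the median was 1.12 and the highest 8031. After thinning, *C3* was found in 49 of 56 (87.5%, 75.9 to 94.8%) old MSC-L but in 17 of 59 (28.8%, 17.8 to 42.1%) old and 17 of 59 (28.8%, 17.8 to 42.1%) young MSC-S, so its MSC-S level came from a minority of the cells. In AEC, *C3* was near the detection limit, and in young AEC it was 0.811 CPM without 1 cell.

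*Cfb*, which encodes factor B, the protease that joins C3b in the convertase of the alternative pathway, was a gene of low level. Its highest value was 16.1 CPM (14.4 to 18) in old MSC-L. The other old groups had 12.2 in MSC-S, 8.61 in OPr, 9.37 in mOPr, 2.52 in AEC and 8.49 in SEC. In young mice, *Cfb* stood at 11.7 in MSC-L, 1.13 in MSC-S, 1.53 in OPr, 0.823 in mOPr, 0.889 in AEC and 8.71 in SEC. The interval of old MSC-L did not meet that of old MSC-S, the next in this order. Intervals met between all neighbours from old MSC-S down to old SEC, a set of 6 groups, and again in sequence among the 5 lowest. The lower set held both ages of AEC and young OPr, MSC-S and mOPr. For young OPr, 1 cell gave nearly all counts, and *Cfb* was at 0.0351 CPM without it. Young MSC-S and young mOPr were at 0.711 and 0.284 without 1 cell each. SEC without cells with mesenchymal markers had *Cfb* at 7.31 CPM in young and 8.94 in old mice.

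*Cfd* encodes factor D (adipsin), the protease that cleaves factor B. Its highest level by group, 790.4 CPM (781 to 799.8) in young MSC-S, came from 1 cell, which held 27266 of the 27312 counts at 33248 CPM, and without which the group was at 1.36 CPM. That cell, placed by the authors in cluster M5, was also the one with the most *C4b* among young MSC-S. Aside from it, *Cfd* was a gene of SEC, where old cells had 216 CPM (209.8 to 223) and young cells 182 CPM (176 to 188). These levels hardly depended on the SEC with mesenchymal markers, since without them *Cfd* was at 217 and 191 CPM. After thinning, 27 of 70 (38.6%, 27.2 to 51%) young and 22 of 70 (31.4%, 20.9 to 43.6%) old SEC had it, with a highest cell of 2263 and 4095 CPM. AEC had 2.61 CPM in young and 1.55 in old mice, and 0.029 and 0.0876 without 1 cell each. All other groups lay at or under 0.308 CPM, the value of old MSC-L, with intervals that met in sequence. These were 0.263 in young MSC-L, 0.179 in old MSC-S, 0.16 and 0.0686 in old and young mOPr, 0.0468 in old OPr, and no count in young OPr, which allows up to 0.102 CPM by a limit of 3 counts.

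The membrane regulators *Cd55* and *Cd59a* each had their highest level outside MSC-L. *Cd55*, decay-accelerating factor, which takes *C3* convertases apart, was highest in MSC-S, at 304 CPM (298 to 309.7) in young and 275 CPM (270.3 to 281) in old mice, with SEC next by summed counts. Without the highest cell, which held 30.9% of the counts in young MSC-S, these were at 215 and 229 CPM, and young SEC at 214. The other young groups had 9.6 in MSC-L, 1.06 in OPr, 36.5 in mOPr, 26.4 in AEC and 225 in SEC. In the other old groups *Cd55* was at 5.8 in MSC-L, 12.6 in OPr, 16.9 in mOPr, 22.9 in AEC and 155 in SEC. No neighbours in this order had counting intervals that met, yet the low levels also rested on few cells. Without the highest cell, *Cd55* was at 5.28 and 2.56 CPM in young and old MSC-L, 0.525 and 4.93 in OPr, 23.4 and 5.13 in mOPr, and 12.2 in old AEC. MSC-L, at the top for *Serping1*, *C1ra*, *C2* and *C4b*, were near the bottom for *Cd55*. In SEC the signal was widespread, since *Cd55* was found in 61 of 70 (87.1%, 77 to 93.9%) young and 46 of 70 (65.7%, 53.4 to 76.7%) old SEC, and without cells with mesenchymal markers its SEC level was 234 and 153 CPM. Old SEC also held more of the AEC markers, and among SEC-like cells the share with *Cd55* was 57 of 61 (93.4%, 84.1 to 98.2%) for young mice, compared with 39 of 43 (90.7%, 77.9 to 97.4%) for old mice. Among MSC-S the shares were 36 of 59 (61%, 47.4 to 73.5%) in young and 44 of 59 (74.6%, 61.6 to 85%) in old mice.

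*Cd59a*, which blocks assembly of the membrane attack complex, was the member of AEC and young mOPr. It stood at 94.1 CPM (89.2 to 99.2) in young mOPr, and in AEC old cells had 72.6 CPM (69.8 to 75.5) and young cells 68.2 CPM (65.5 to 71), intervals that met. The place of young mOPr above AEC rested on 1 cell with 36.6% of the counts, without which they were at 61.9 CPM. The other young groups had 17.2 in MSC-L, 14.7 in MSC-S, 18.9 in OPr and 17.3 in SEC. The other old groups had 4.82 in MSC-L, 7.1 in MSC-S, 18.3 in OPr, 4.41 in mOPr and 23.7 in SEC. From young OPr down to young MSC-S each neighbour met the next in its interval, as did old MSC-L and old mOPr at the bottom. AEC carried *Cd59a* in many cells, 37 of 83 (44.6%, 33.7 to 55.9%) young and 36 of 82 (43.9%, 33 to 55.3%) old. In MSC-L, where 3 of 53 (5.66%, 1.18 to 15.7%) young cells had it, the level rested on few cells, and without the highest cell it was 3.68 CPM in young and 2.67 in old mice. Old OPr and old mOPr were at 11.8 and 0.0822 CPM without 1 cell each. In SEC without cells with mesenchymal markers *Cd59a* was at 18.9 CPM in young and 26.1 in old mice.

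**Figure D1:**
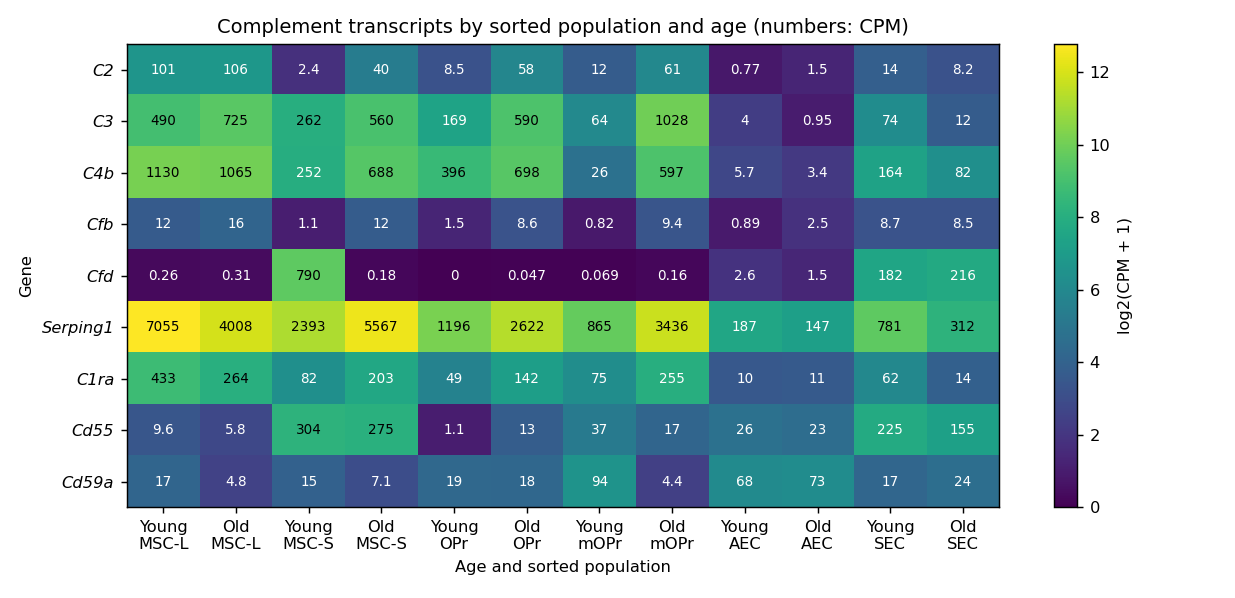
Level of each member in the 12 groups of sorted population and age, shaded by log2(CPM + 1) of summed nuclear counts with the CPM printed in each field. Serping1, C1ra, C2 and C4b have their highest level in MSC-L and C3 in old mOPr, while Cd55 is high in MSC-S and SEC, Cd59a in AEC and young mOPr, and Cfd in SEC and, through 1 cell, in young MSC-S.

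Compared between genes as level per kilobase of exon, *Serping1* led in young MSC-L with 3035 CPM per kb, ahead of *C4b* with 198, *C1ra* with 145, *C3* with 95.3 and *C2* with 26. The same scale gave 9.49 for *Cd59a*, 4.13 for *Cfb*, 1.98 for *Cd55* and 0.285 for *Cfd*. The inhibitor was thus above the other 8 members on this scale. The scale divides by all exon bases, but *Cfb* and *C2* share 2246 of 2825 and 1656 of 3872 with *Gm20547*. How this affects their places was not tested. In old SEC the leader was *Cfd* with 234 CPM per kb, then *Serping1* with 134 and *Cd55* with 32. In old AEC it was *Serping1* with 63.3, then *Cd59a* with 40.1, while *C3* was at 0.184 and *C2* at 0.385. AEC held an inhibitor and a membrane regulator with little of the components. Summed over the 9 members, the level was 9248 CPM in young and 6195 in old MSC-L, 1173 and 5408 in young and old mOPr, and 306 and 264 in young and old AEC.

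The authors also assigned cells to clusters by ICGS, which picks guide genes from the data, M1 to M16 for mesenchymal and E1 to E7 for endothelial cells. *C2*, *C4b* and *Cd55* are guide genes of mesenchymal clusters, so their cluster levels restate that choice. Over clusters of at least 10 cells, both ages together, *Serping1* was highest in M9 at 7810.3 CPM and M1 at 6665, and was at 2.33 in M3, 64.7 in M4 and 81.5 in M15. *C1ra* was likewise at 379.9 CPM in M1 and 324 in M9, and at 1.86 in M3 and 4.88 in M15. M9 holds 10 old cells and no young one, and M15 holds 17 young cells and no old one. *C3* was divided within the MSC-S clusters, at 697 CPM in M12 and 613 in M7 but 2.01 in M16, 14.2 in M15 and 31.2 in M9. Without the highest cell these were 446, 329.7, 0.25, 2.79 and 0.532, in the same sequence. *C2* and *C3* thus parted company, since *C2* was at 117 CPM in M9 and 0.249 in M12. *Cd55* was highest in M16 at 561 CPM and M7 at 458. *Cd59a* was highest in E3 at 102 CPM and M15 at 99.3, with 50.9 in E4, and M15 was at 60.4 without its highest cell. *Cfd* was at 252 CPM in E7, the sinusoidal cluster, and at most 1.98 in E3 to E6. In E1, where 14 of 14 cells carried at least 7 mesenchymal markers and which the authors describe as doublets, *Serping1* was at 4072 CPM, *C4b* at 841 and *Cfd* at 125.

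**Figure D2:**
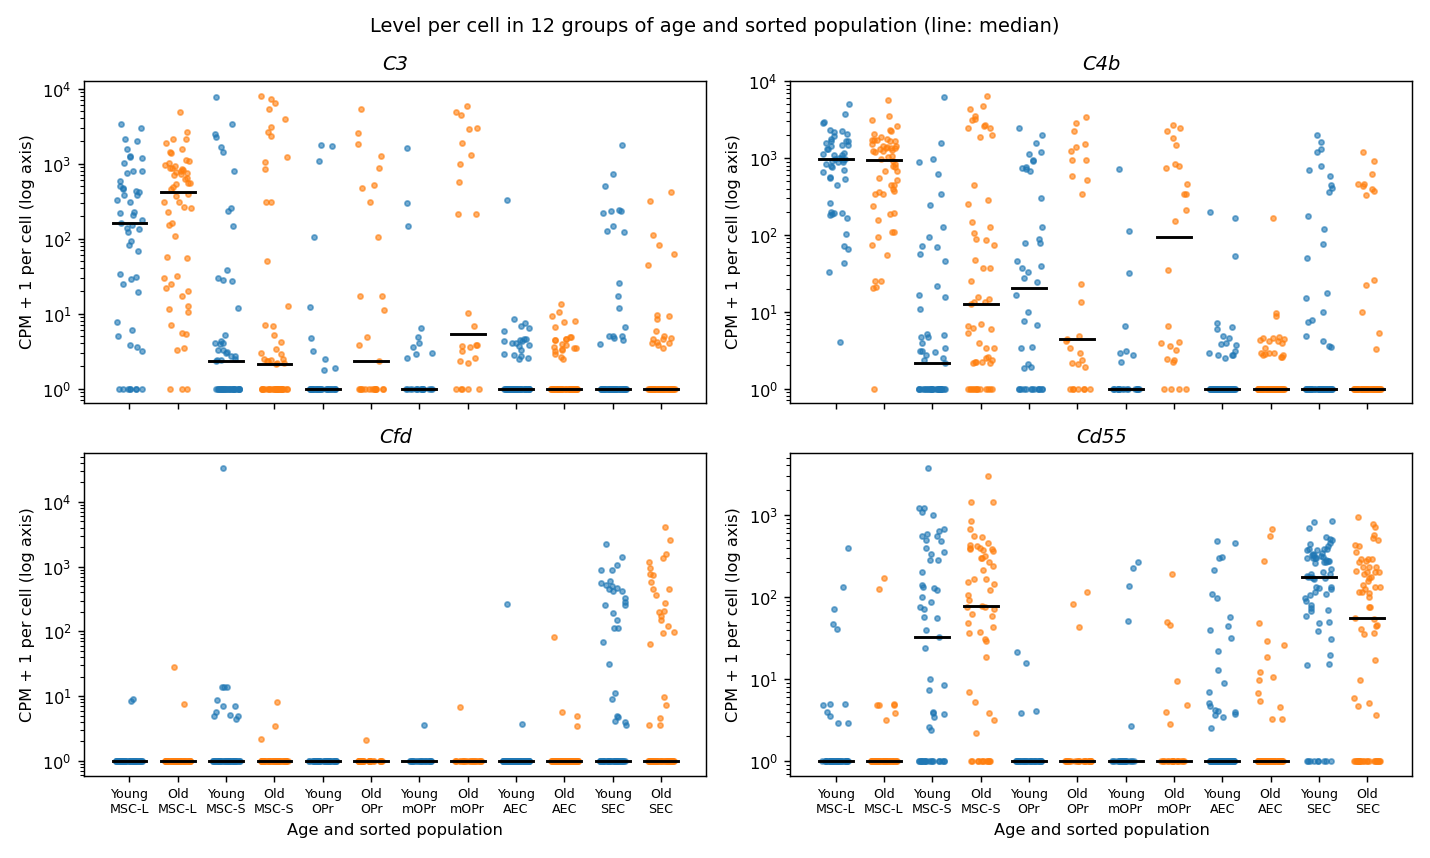
CPM + 1 per cell (log axis) of C3, C4b, Cfd and Cd55 in the 12 groups, each point 1 cell (blue young, orange old) and each line the group median. In most groups the values run from 0 to levels far above the median, C4b in young MSC-L starts above 0, Cfd has no count in young OPr, and the highest Cfd value belongs to 1 young MSC-S cell.

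Old and young cells were compared within identity groups, which the authors define by cluster. SEC-like is E7, AEC-like joins E3 with E4, MSC-L-like joins M1 with M2, OPr-like takes M3 through M5, and MSC-S-like takes M6 through M16. The question was how the same kind of cell differs between ages whatever gate it came through. Ratios are given as log2 old over young of CPM with the exact conditional 95% interval. A gene passed the filter with 100 counts or more spread over 5 or more cells, both ages together. A difference of at least 2-fold is counted as higher or lower, with the share of all genes that pass the same bound as background. Library numbers given in the cell labels form 3 ranges with gaps between them, and each ratio was recomputed within ranges. Mesenchymal cells occur in ranges 1 and 2, SEC in range 3 alone and AEC in all 3.

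In MSC-S-like cells, 6 of 8 members that passed the filter were at least 2-fold higher and 1 lower in old cells. Of all genes, 9.91% were at least 2-fold higher and 15.7% at least 2-fold lower, and since the members were chosen with these values known, nothing is read from their count. *C4b* was at 689 CPM in old and 56.6 in young cells, a log2 ratio of 3.61 (3.55 to 3.67). *C2* was at 41.7 CPM in old and 1.56 in young cells, or 4.74 (4.39 to 5.11). *Cfb* was at 11.8 CPM in old and 0.714 in young cells, or 4.04 (3.52 to 4.61). *C2* and *Cfb*, with the widest ratios, were thus nearly absent from the young cells. *C3* was at 552 CPM in old and 166 in young cells (1.74), *Serping1* at 5135 CPM in old and 1925 in young cells (1.42) and *C1ra* at 202 CPM in old and 71.1 in young cells (1.5). The *C3* ratio came from a minority of cells, since after thinning 13 of 53 (24.5%) old and 19 of 71 (26.8%) young cells had it, with a cell median of 0 at both ages. *Cd59a* went the other way, at 7.4 CPM in old and 42.3 in young cells, or -2.51 (-2.70 to -2.33). *Cd55* had no steady direction, at 287 CPM in old and 246 in young cells and with 1.54 in range 1 and -0.40 in range 2. For the others, within library-number ranges 1 and 2, the ratios were 2.41 and 5.35 for *C2*, 2.31 and 3.75 for *C3*, 3.93 and 3.50 for *C4b*, and 3.37 and 5.18 for *Cfb*. They were 1.55 and 1.38 for *Serping1*, 1.74 and 1.58 for *C1ra*, and -2.63 and -1.54 for *Cd59a*, so each of these 7 kept its direction in both.

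Clusters M9 and M15, with cells of 1 age alone, bear on this comparison. Without them the ratios were 3.23 for *C2*, 3.15 for *C4b*, 3.63 for *Cfb*, 1.66 for *C3* and -1.68 for *Cd59a*. *Serping1*, at 0.74, and *C1ra*, at 0.80, were then under 2-fold. Within the single cluster M12, with 10 old and 17 young cells, *C4b* was at 4.12 and *C3* at 3.03, while *Serping1* was at 0.43, *C1ra* at -0.05 and *Cd59a* at 0.12 (-0.24 to 0.48). In M16, with 21 old and 15 young cells, *C4b* was at 2.92, *Serping1* at 1.51, *C1ra* at 1.22 and *Cd59a* at -0.45 (-1.14 to 0.24). *C3* had 50 counts in M16, 88% of them in 1 cell, so no ratio is given. In M7, with 6 old and 9 young cells, *Serping1* was at 1.08, *C1ra* at 1.10 and *Cd59a* at -6.82, on 1 and 170 counts, while *C4b*, at 3.66, and *C3*, at 1.32, had 81.3% and 49.3% of their counts in 1 cell. Higher *C4b* in old cells was thus present inside M12 and M16, and higher *C3* inside M12. In M12, 1 cell held 38.1% of the *C3* counts and 1 cell 35.5% of the *C4b* counts. In M16, 1 cell held 42.1% of the *C4b* counts. *C2* had no count in M16, 4 and 0 in old and young cells of M12, and 53 and 0 in M7, 92.5% of them in 1 cell, while M9 held 981 of its 1563 counts in old cells, so its difference was hardly seen inside these clusters of both ages. *Cd59a* was lower in old cells inside M7, while its intervals spanned 0 in M12 and M16. Sorting gate also bears on it. Young MSC-S-like cells include cells sorted as mOPr and OPr, while old mOPr and OPr lie in M1 to M5 alone. Gate and age are thus partly mixed in the ratios of this identity group. By sorted MSC-S the ratio was 4.04 for *C2*, 3.43 for *Cfb*, 1.22 for *Serping1* and 1.30 for *C1ra*. It was 1.09 for *C3* and 1.45 for *C4b*, whose young level there includes the single M5 cell with 5143 counts. For *Cd59a* it was -1.05.

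MSC-L-like cells, with 80 old and 56 young cells, stayed within 2-fold between ages for members other than *Cd59a* over M1 and M2 summed. M2 gave 36 of the old and 14 of the young cells. Within M2 *C3* was at 1.5, past 2-fold, and within M1 at 0.88, while *C4b* was at -0.36 and 0.53 and *Cd55* at 0.39 and -4.29 in M2 and M1. The *Cd55* value in M1 (-5.77 to -3.12) rested on 6 old and 112 young counts. Of 8 members that passed, 1 was at least 2-fold higher and none lower in old cells, against 15.5% and 10.8% of all genes. *C3* was at 1086 CPM in old and 608 in young cells, or 0.84 (0.81 to 0.86), and in ranges 1 and 2 at 0.17 and 1.45. *Serping1* was lower in old cells at -0.66 (-0.67 to -0.65), as was *C1ra* at -0.51 (-0.55 to -0.47), with -0.40 and -0.89 for *Serping1* and -0.73 and -0.34 for *C1ra* within ranges. *C2* (0.23), *C4b* (0.24), *Cfb* (0.52) and *Cd55* (0.34) each took the other sign in at least 1 range or other setting. *Cd59a*, the member past 2-fold, was at 9.89 CPM in old and 3.18 in young cells, or 1.64 (1.28 to 2.00), on 348 and 82 counts. It rested on few cells, since the ratio was 6.13 in range 1 and 0.55 in range 2, 5.19 without the highest cell of each age, and -1.83 among cells sorted as MSC-L.

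Among OPr-like cells, with 39 old and 55 young, 2 of 8 members that passed were at least 2-fold higher and 4 lower in old cells, against 23.8% and 24.5% of all genes. *Serping1* was at 1951 CPM in old and 487 in young cells, or 2.00 (1.98 to 2.03), with 0.41 in range 1 and 2.89 in range 2. *Cd55* was at 12.4 CPM in old and 1.34 in young cells, or 3.21 (2.73 to 3.73), with at least 5.36 and 2.64 within ranges. The other called members were lower in old cells. *C4b* was at 167 CPM in old and 606 in young cells, or -1.86 (-1.91 to -1.81), with -2.04 and -1.77 within ranges, but at 0.82 among cells sorted as OPr. *Cd59a* was at -1.51 (-1.74 to -1.28), with -0.38 and -1.68 within ranges, and at -0.04 (-0.23 to 0.15) among cells sorted as OPr. *C2* had no steady direction, at -1.48 (-1.94 to -1.04) over all cells, 2.23 in range 1, -5.06 in range 2 and 2.77 among sorted OPr. *Cfd* was at -13.11 (-16.15 to -11.26) through the single M5 cell sorted as MSC-S, and at -2.71 without the highest cell of each age. The same omission gave 1.20 for *Serping1* and -2.48 for *C4b*. The 8 old cells with blood markers all belong here, and without them the ratios were 2.46 for *Serping1*, 3.48 for *Cd55*, -1.41 for *C4b* and -1.05 for *Cd59a*. Nearly all cells of M3 are young, and in M5 alone *Serping1* was at 1.09, *C4b* at -3.67, *C2* at -2.41 and *Cd59a* at -2.46.

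The sorted osteoprogenitors gave another picture, as their old cells belong to more than 1 identity group. Of the old cells, 14 of 26 mOPr and 10 of 29 OPr lie in clusters M1 and M2. In old mOPr, *C3* was at 1849 CPM in the cells of M1 and M2 and 115 in the rest, beside 21.7 in young mOPr outside those clusters. *C4b* divided as 1119 and 17.3, beside 7.28 in young, and *Serping1* as 5006 and 1691, beside 782. The levels outside M1 and M2 rested on few cells. Without the highest cell, *C3* was at 1.67 in old and 11.1 in young mOPr there, and *C4b* at 4.5 and 2.49. The high *C3* and *C4b* of old mOPr thus sat in cells of the MSC-L-like clusters. In old OPr, *C2* was at 129 CPM in M1 and M2 and 0.17 in the rest, and *C1ra* at 292 and 18.6 (8.02 without 1 cell). Outside M1 and M2, *Serping1* was at 221 CPM in old and 232 in young OPr, or 113 and 138 without the highest cell of each, though 8 of those 19 old cells carry blood markers. Old OPr without these 8 cells had *Serping1* at 3498 CPM, *C4b* at 931, *C3* at 746 and *C2* at 77.1. *Cd59a* was at 99 CPM in young mOPr outside M1 and M2 and 65.2 without the highest cell, while in old mOPr 1 of the 12 cells outside held all 54 counts.

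AEC-like cells, 69 old and 50 young, had 6 members past the filter, of which 2 were at least 2-fold higher and 1 lower in old cells, against 13.9% and 12.9% of all genes. The counts are low. *C1ra* was at 9.23 CPM in old and 2.0 in young cells, or 2.20 (1.75 to 2.69), on 281 and 46 counts, and *Cfb* at 3.61 CPM in old and 0.567 in young cells, or 2.67 (1.84 to 3.63), on 110 and 13. *Cfb* kept its direction within ranges, at 1.71, 2.69 and at least 2.04 in ranges 1, 2 and 3, and *C1ra* was at 0.17, 1.86 and at least 3.75. For both genes young cells of range 3 had no count, and 3 counts stood in their place. Without the highest cell of each age *C1ra* was at 3.47 and *Cfb* at 3.26, and among cells sorted as AEC *C1ra* was at 0.13 and *Cfb* at 1.5. *Cd55*, at -1.03 (-1.19 to -0.86), was lower in range 2 alone (-4.17) and not in range 1 (0.24) or range 3 (0.10). *Cd59a*, the abundant regulator of these cells, was at 82.3 CPM in old and 69.1 in young cells, or 0.25 (0.16 to 0.34), with 1.21, -0.18 and 0.58 in ranges 1, 2 and 3, so it had no steady direction. *Serping1* was at 129.7 CPM in old and 87 in young cells, with within-range ratios from -1.42 to 7.94.

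SEC-like cells, 44 old and 61 young and all from range 3, had 8 members past the filter, none at least 2-fold higher and 2 lower in old cells, against 12.5% and 11.5% of all genes. *C3* was at 6.27 CPM in old and 18.2 in young cells, or -1.54 (-1.90 to -1.18), and *C1ra* at 6.19 CPM in old and 22.2 in young cells, or -1.84 (-2.21 to -1.50). Both had their highest levels in mesenchymal groups, and without the 2 young and 2 old SEC-like cells that carried mesenchymal markers their ratios were -1.02 and -1.66. Leaving out the highest cell of each age gave -3.10 and -3.02. With the mean of CPM over cells, *C3* was at -0.67, under 2-fold. In old SEC-like cells, 1 cell held 84% of the *C3* counts. The genes typical of SEC-like cells differed less. *Cfd* was higher in old cells, at 342 CPM in old and 189.5 in young cells, or 0.85 (0.79 to 0.92), and *Cd55* was at 219.6 CPM in old and 244 in young cells, or -0.15 (-0.22 to -0.08). *Cfb* (0.36), *C4b* (0.15), *Serping1* (-0.28) and *Cd59a* (-0.40) were all within 2-fold.

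**Figure D3:**
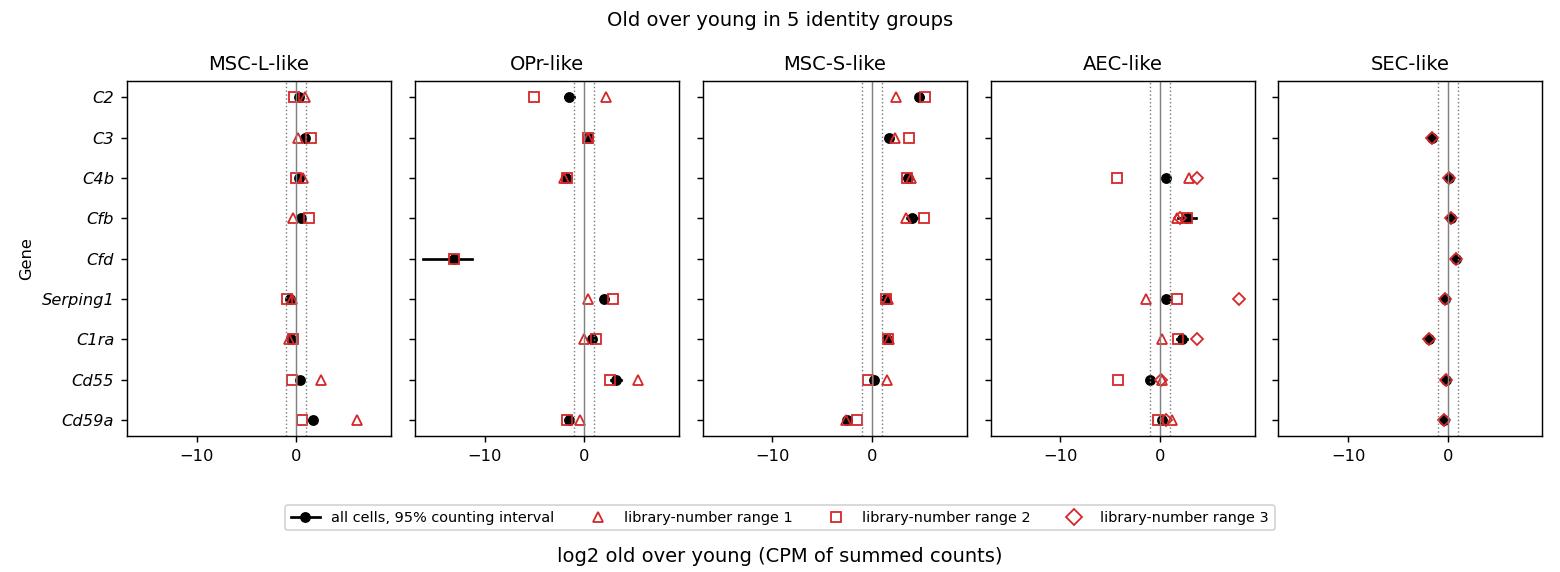
Log2 ratio of old over young CPM for each member that passed the filter in 5 identity groups, with the 95% counting interval of all cells as a bar and the ratio within each library-number range as open marks. Dotted lines mark 2-fold, and in MSC-S-like cells 6 members lie above and Cd59a below.

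Single cells often held several members at once. The median MSC-L had counts of 5 of the 9 in young and 5.5 in old mice, and the median AEC of 2 at both ages. Across cells of a group, members found in at least 50% of its cells were correlated by rank, which is a description of cells that share libraries and differ in depth. *Serping1* and *C1ra*, an inhibitor and its target protease, had rank correlations of 0.36 over 53 young MSC-L, 0.37 over 58 old MSC-L, 0.68 over 59 young MSC-S and 0.42 over 59 old MSC-S. In old OPr, a mixture of identity groups, the value was 0.82 over 29 cells. *C3* and *Cd55* ran opposite to each other in old MSC-S, at -0.45, and not in young MSC-S, at 0.04. MSC-S also mix clusters, since M16 had the highest *Cd55* and *C3* at 2.01 CPM, and M12 had *C3* at 697. After thinning, 28.8% of MSC-S at each age had *C3*. How far the cluster mix sets these values was not tested. *C2* and *C3* were nearly unrelated among MSC-L, at 0.11 in young and -0.14 in old mice.

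Across the 12 groups, likeness of pattern was measured as Pearson's r of log2(CPM + 1) against 14025 genes of at least 10 CPM in at least 1 group. The groups share libraries, and old OPr and mOPr share cell types with MSC-L. The members were selected on their levels in these same groups, so nothing is read from likeness between members. *Serping1* was most like *C1ra* (0.971), *C3* (0.963) and *Scara5* (0.96), of which the first 2 are members. *C1ra* was most like *Serping1* (0.971), *Adamts2* (0.96) and *Klhdc1* (0.956), *C3* like *Efemp1* (0.974), *Serpina3n* (0.972) and *Srpx* (0.972), and *C2* like *Nradd* (0.955), *Csmd1* (0.944) and *Spg20* (0.939), where *Csmd1* is itself a complement regulator. *C4b* was most like *Chrdl1* (0.964), *Maob* (0.95) and *Wisp2* (0.95), and *Cfb* like *Arhgap15* (0.914), *Igfbp4* (0.907) and *Noxo1* (0.901). The regulators on the membrane and *Cfd* had other neighbours. *Cd55* was most like *Hsd3b7* (0.919), *Ctsb* (0.903) and *Man1a* (0.899), *Cd59a* like *Adss* (0.896) and *Fxyd4* (0.894), and *Cfd*, with its single young MSC-S cell, like *Cngb1* (0.90), *Rbfox1* (0.898) and *Fyco1* (0.845). Between members, *C3* and *C4b* had r = 0.94, *C4b* and *Cd59a* r = -0.860, and *C2* and *Cfb*, neighbours on the chromosome, r = 0.809.

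Promoter sequence was at hand for 5 members, *Cd55*, *Cd59a*, *C1ra*, *Cfd* and *C3*, in a RefSeq table on build GRCm38.p6, and for none of *C2*, *C4b*, *Cfb* and *Serping1*. The 250 bases before the start were searched on both strands for GAS (TTCNNNGAA, bound by STAT proteins), ISRE (GAAA and GAAA with 2 free bases between, bound by interferon regulatory factors), an NF-kB motif (GGG and TTTCC with 2 free bases between) and a C/EBP motif (TTGCNNAA). Of 32851 promoters of the same length, 7.02% held GAS, 2.98% ISRE, 1.41% the NF-kB motif and 9.56% the C/EBP motif. Among the 5, *C3* held the C/EBP letters from 45 to 38 bases before its start, and *Cd59a* held ISRE from 187 to 178 bases before. *C3* and *Cd59a*, the only ones of the 5 with a match, are shown with the matches in capitals. They differed between ages in opposite directions in MSC-S-like cells. *C1ra*, with no match, differed there in the direction of *C3*, at 1.5. A link between motif and direction was not tested. A match is a description of letters and not a bound site. The *C3* window is chr17:57228137-57228386 on the minus strand and that of *Cd59a* is chr2:104095551-104095800 on the plus strand.
C3: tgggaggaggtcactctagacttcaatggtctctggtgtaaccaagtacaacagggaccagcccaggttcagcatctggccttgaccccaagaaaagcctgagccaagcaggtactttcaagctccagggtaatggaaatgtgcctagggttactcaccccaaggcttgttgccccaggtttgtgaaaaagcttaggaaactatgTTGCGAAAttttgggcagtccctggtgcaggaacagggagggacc
Cd59a: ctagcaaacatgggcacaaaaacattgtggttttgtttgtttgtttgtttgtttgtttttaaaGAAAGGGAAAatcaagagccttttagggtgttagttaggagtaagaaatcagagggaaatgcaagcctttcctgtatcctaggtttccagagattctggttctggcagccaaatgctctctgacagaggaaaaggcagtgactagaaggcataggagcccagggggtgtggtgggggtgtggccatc

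The members are part of a wider set of 61 complement genes found in the table under 6 lists, which cover initiation of the classical and lectin pathways, the alternative pathway, terminal components, soluble regulators, membrane regulators and receptors. At the 2-fold bound, in MSC-S-like cells 16 of 28 passing genes were higher and 4 lower in old cells, against 9.91% and 15.7% of all genes, with a median log2 ratio of 1.46 against -0.09 for all genes. Without the members, whose values were known when they were chosen, 10 and 3 of 20 were higher and lower (median 0.81). The lists too were chosen with earlier results of these data known, so nothing is read from these counts or those that follow. The counts higher and lower in the other groups follow in the same form. MSC-L-like cells had 4 and 9 of 30 (median 0.01), all genes 15.5% and 10.8% (0.03), and the set without the members 3 and 9 of 22 (-0.25). OPr-like cells had 11 and 9 of 27 (median 0.42), all genes 23.8% and 24.5% (0.01), and the set without the members 9 and 5 of 19 (0.87). Without the 8 old OPr-like cells with blood markers the first counts were 8 and 8 of 23. AEC-like cells had 5 and 3 of 16 (median 0.33), all genes 13.9% and 12.9% (0.01), and the set without the members 3 and 2 of 10 (-0.04). SEC-like cells had 2 and 4 of 20 (median -0.02), all genes 12.5% and 11.5% (0.02), and the set without the members 2 and 2 of 12 (0.03). *C7* of the membrane attack complex was at 381 CPM in old and 42.4 in young MSC-S-like cells (3.17), and *C1s1*, the partner of C1r, at 1.91. *Clu*, clusterin, went the other way as *Cd59a* did, at 60.9 CPM in old and 8206 in young cells (-7.07). The young MSC-S-like cells include sorted mOPr, in which *Clu* was abundant, and the old ones do not. This ratio therefore mixes gate with age, and ratios by sorted MSC-S are not given here for *C7*, *C1s1* and *Clu*. Within ranges 1 and 2 the ratios were 3.52 and 11.89 for *C7*, 1.48 and 2.42 for *C1s1*, and -5.75 and -8.02 for *Clu*. The *C7* value in range 2 (9.41 to 17.19) rested on 4260 old counts and 1 young count. Without M9 and M15 they were 2.98, 0.59 and -4.42.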

How the data were processed

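Single cells were sorted from bone and sequenced by the authors, who used GSNAP to map reads to GRCm38.p4 (Ensembl 81) and HTSeq to count them by gene, ignoring strand, and deposited the counts without normalization, after removing cells of low depth or high mitochondrial share. Of 46078 entries, 270 repeated symbols were summed, leaving 45771 nuclear and 37 mitochondrial genes. Age, population and cluster came from the labels. Members and gene lists were chosen with earlier results of these data known. Counts were summed per group and scaled to CPM of nuclear genes. Intervals were exact Poisson, conditional binomial or Clopper-Pearson at the 95% level. A group at 0 took 3 counts, and no ratio was formed when both ages had 3 or fewer. Named genes were the members, other listed complement genes at least 2-fold different between ages or above 100 CPM in a population, and the 3 genes most like each member. Some genes of this rule are not reported here. The ratio was tested on simulated data. Spike-ins were not used here. Tools were matplotlib 3.10.9, scipy 1.17.1, pandas 2.3.3 and numpy 2.4.6 under Python 3.11.15.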

Additional observations from a re-analysis of the deposited data

Results flagged for a closer look

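In 4 members the old over young ratio was at least 2-fold in opposite directions in different identity groups. Each ratio kept its direction in every library-number range that gave a value, and the difference between groups was not tested. In a single identity group, 9.91 to 24.5% of all genes passed 2-fold in a given direction. How many of all genes meet the rule of opposite directions was not counted, so nothing is read from the 4. *C3* had a log2 ratio of 1.74 in MSC-S-like and -1.54 in SEC-like cells. *C4b* was at 3.61 in MSC-S-like and -1.86 in OPr-like cells. *C1ra* was at 1.5 in MSC-S-like and 2.20 in AEC-like cells, and at -1.84 in SEC-like cells. *Cd59a* was at 1.64 in MSC-L-like cells, -1.51 in OPr-like cells and -2.51 in MSC-S-like cells. SEC-like cells come from range 3 alone and mesenchymal cells from ranges 1 and 2, so that range and cell type cannot be told apart there. By sorted population *Cd59a* in MSC-L and *C4b* in OPr had the other sign, *Cd59a* in OPr was at -0.04 and *C1ra* in AEC at 0.13. *C1ra* in MSC-S-like cells was at 0.80 without clusters M9 and M15 and -0.05 in M12, under 2-fold. With the mean of CPM over cells, *C3* in SEC-like cells was at -0.67, also under 2-fold.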

How the results depend on the processing

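Old over young ratios of members were recomputed with median-of-ratios size factors, with no filter and with a pseudocount of 1 CPM, none of which could turn the sign of a ratio of at least 2-fold here, so these are not counted. The other alternatives were the mean of CPM over cells, the sorted population, each library-number range alone, and leaving out cells with blood cell markers, cells with markers of another lineage or the highest cell of each age. Leaving out clusters M9 and M15 and taking M5 alone were added after seeing the data. In these, 15 of 19 member ratios of at least 2-fold kept their sign throughout, and the sign was the same in 116 of 122 values, for members chosen on these differences. By sorted population *Cd59a* in MSC-L-like cells was at -1.83, and *C2* and *C4b* in OPr-like cells at 2.77 and 0.82. In range 1 alone *C2* in OPr-like cells was at 2.23 and *Cd55* in AEC-like cells at 0.24, and in range 3 alone *Cd55* in AEC-like cells was at 0.10. The causes were not tested. Where both ages had 3 counts or fewer, as for *Cfd* in range 1 and in sorted OPr, no ratio was given. With all counts in place of thinned ones, 85 shares of cells stayed within their intervals and 23 moved.

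Counts of complement genes at least 2-fold different moved as follows, and with no filter more genes were counted by construction. With no filter the higher count was 9 in MSC-L-like, 13 in AEC-like and 13 in SEC-like cells, and the lower count 15 in OPr-like, 11 in MSC-S-like, 11 in AEC-like and 12 in SEC-like cells. By sorted population they were 17 higher and 5 lower in OPr, 2 higher and 6 lower in AEC, and 4 higher in SEC. Range 1 alone gave 3 lower in OPr-like, 2 lower in MSC-S-like and 3 higher in AEC-like cells, and range 3 alone 1 higher and 0 lower in AEC-like cells. The mean of CPM gave 1 lower in AEC-like and 2 lower in SEC-like cells, a pseudocount 1 lower in AEC-like cells, and leaving out the highest cell 0 higher in SEC-like cells. For MSC-S-like cells without M9 and M15, 12 of 26 were higher and 4 lower. No paired analysis was possible because the labels name no mouse.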

Other observations

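Of the 7 genes listed as receptors, *Cd93* was at 1251 CPM in young and 1003 in old AEC and at 571 and 704 in young and old SEC, beside 43.4 and 36 in MSC-L and 114 in old OPr. *C5ar2* was at 104 and 72.3 in young and old SEC and 5.7 and 2.1 in MSC-L. The 8 old OPr with blood markers held *C5ar1*, the receptor of C5a, at 2097 CPM, *Itgam* at 879.7, *Itgb2* at 668 and *Cfp*, properdin, at 558, beside *C3* at 122, *Serping1* at 3.17 and *Cfb* at 0. This *C3* level came mostly from a single cell. In the 19 old OPr outside the MSC-L-like clusters, which include these 8, the highest cell held 90.5% of the *C3* counts. Without it, *C3* was at 5.78 CPM there. In OPr-like cells *C5ar1* was at 10.62 and *Cfp* at 5.15 with the 8 cells that carry blood markers, and at -2.38 and 0.19 without them.

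Among other regulators, *Csmd1* was at 812 CPM in old and 510.3 in young MSC-L. *C6* was at 53.4 CPM in old and 147 in young MSC-L. *Clu* reached 14005 CPM in young mOPr and 637 in old mOPr. *Cfi* and *Mbl2* had no count in any group.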
